A study of Mus musculus with 6 samples.

Results

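The WFDC genes are a family of small secreted inhibitors that share the whey acidic protein (WAP) core domain, and most of them sit side by side on mouse chromosome 2. The members described here are the 10 genes of that cluster named Wfdc2, Wfdc3, Wfdc6a, Wfdc6b, Wfdc8, Wfdc10, Wfdc15a, Wfdc15b, Eppin and Slpi. They were taken by gene name from the deposited table of 34745 genes, but the names were chosen with earlier results of these data known. Other WFDC genes of the cluster are outside this list and are described below. Their expression was compared between the prostates of 3 male C57BL/6 mice of the T + E2 group and 3 of the CON group. Mice of the T + E2 group carried subcutaneous slow-release pellets of testosterone and estradiol for 12 weeks, which gives a model of benign prostatic hyperplasia in which the bladder outlet is obstructed. Mice of the CON group had the skin cut and closed without a pellet, and all mice were 6 to 8 weeks old at the start. RNA of whole prostate tissue was sequenced, 1 library from each mouse, so that fewer cells of a type and less RNA per cell cannot be told apart, and the 2 hormones were given together.

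The WAP domain is a short cysteine-rich fold held by disulfide bonds, and in many members a loop of it blocks the active site of serine proteases. Some members also carry a Kunitz domain, another type of protease inhibitor fold. Several are known from the male tract, where they are secreted into the fluid around sperm, and others protect mucosal surfaces against proteases of white blood cells and against bacteria.

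Between 14816146 and 16555549 reads were counted on genes in each mouse. Values of a gene are given as reads counted or as CPM, which is the count per 1000000 reads after TMM scaling between libraries. Genes with an adjusted p under 0.05 in edgeR's quasi-likelihood test and an absolute log2 fold change over 1 are called DEGs. Of the 15580 genes with enough counts to be tested, 7.64% were DEGs and 4.27% were upregulated DEGs in the T + E2 group, and the median log2 fold change was -0.002. CON replicate 2 and, with a lower sum, T + E2 replicate 2 held many reads on genes known from the seminal vesicle, the gland beside the prostate. The tissue source of these reads was not tested in either mouse. The profiles of these mice differed. Svs2 had 3371 reads in CON replicate 2 and 7949 in T + E2 replicate 2. Svs1, Svs3a, Svs3b and Svs6 had 47 to 583 reads in CON replicate 2 but at most 5 in T + E2 replicate 2. The summed level of 8 seminal vesicle genes was 10326 CPM in CON replicate 2 and 643 CPM in T + E2 replicate 2, against 0.629 to 4.11 CPM in the other 4 mice. This bears on Wfdc15b, and results without both mice are given where they differ.

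Of the 10 WFDC members, 8 could be tested and 7 of these were upregulated DEGs, namely Wfdc2, Slpi, Wfdc6a, Eppin, Wfdc8, Wfdc6b and Wfdc3. None was a downregulated DEG. All 3 T + E2 values lay above all 3 CON values in the same 7 genes and in Wfdc10, whereas groups that do not overlap, in either direction, were found in 40.7% of all tested genes. The changes fell into separate sizes. Wfdc6a, Eppin, Wfdc8 and Wfdc6b, which lie next to each other, were nearly silent in the CON group and over 30-fold higher in the T + E2 group, while Wfdc3, Wfdc2 and Slpi were already transcribed in the CON group and rose by less than 5-fold. Wfdc6a, Eppin, Wfdc8 and Wfdc6b passed the filter on low counts only through their T + E2 reads. They could therefore enter the test only as genes higher in the T + E2 group, which favours the count of upregulated DEGs and lifts the median. The median log2 fold change of the 8 tested members was 4.02. It was 3.33 when Wfdc6a and Wfdc6b, with very few CON reads, were set at the lower limit of their 95% counting interval.

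**Figure D1:**
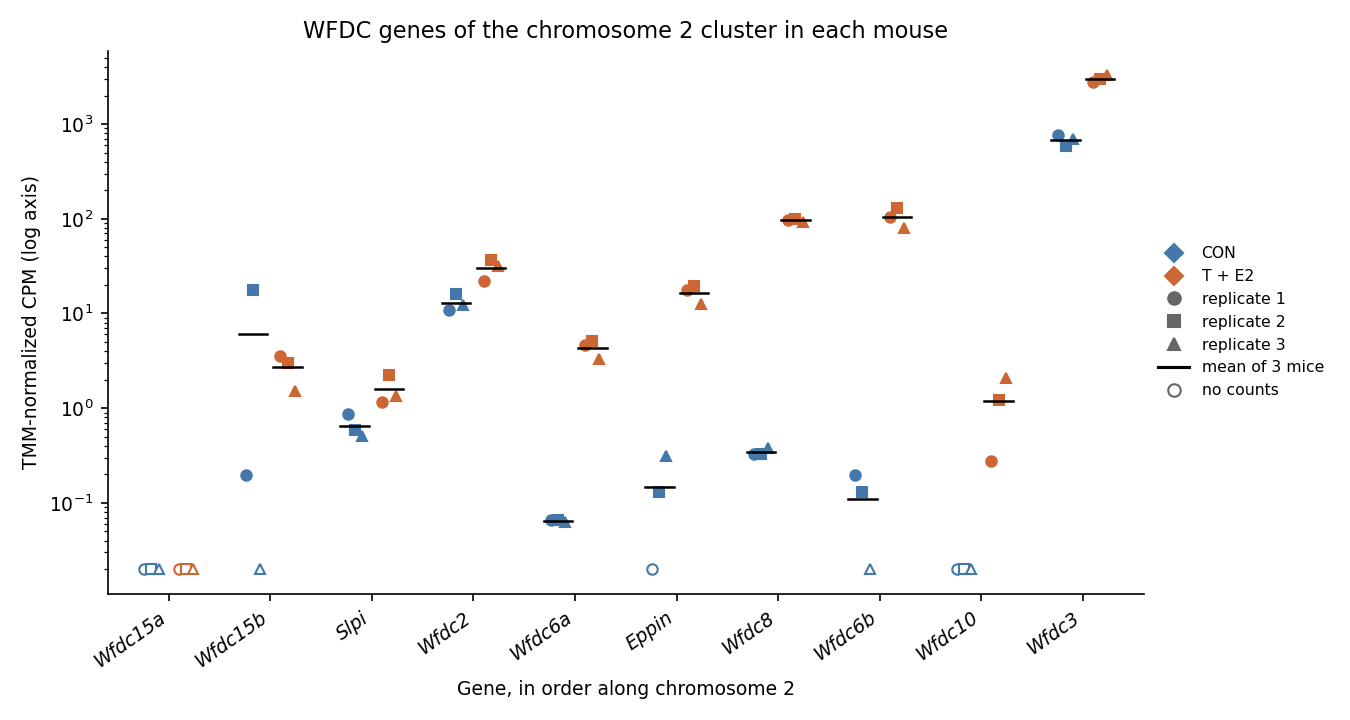
CPM of the 10 WFDC genes in each mouse on a log axis, ordered along chromosome 2, with CON mice in blue, T + E2 mice in orange, replicate numbers as shapes and group means as bars. Open symbols at the bottom mark mice without counts, and the 8 genes in which all T + E2 mice lie above all CON mice include the 4 neighbours Wfdc6a, Eppin, Wfdc8 and Wfdc6b.

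Eppin (ENSMUSG00000017733, chromosome 2 of GRCm38, 164588343 to 164593594, minus strand) encodes the epididymal protease inhibitor, which has a WAP and a Kunitz domain, coats sperm and binds seminal plasma proteins. In the CON mice 0, 2 and 5 reads were counted on it, and in the T + E2 mice 258, 318 and 189. The T + E2 mice were thus far above every CON mouse, at 17.8, 19.4 and 12.6 CPM. Eppin rose by 6.71 on the log2 scale (with a standard error of 0.48, edgeR adjusted p = 8.92e-05). With 7 reads in the whole CON group the ratio of the groups was 110.1, and its exact 95% interval for counting error alone ran from 53.2 to 274.9. CON replicate 3 held 5 of these reads, and without it the ratio was 252.8 and the rise 7.81 on the log2 scale (edgeR adjusted p = 0.000428).

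The stretch before the annotated start of Eppin is shown because it held the closest match to the androgen receptor motif among the 10 members. The motif searched was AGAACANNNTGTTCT on both strands, and the capitals mark a match that differs from it in 2 of the 12 fixed letters and begins 94 bases before the RefSeq start. The sequence is from RefSeq on GRCm38, chr2:164593595-164593821, minus strand, read 5′ to 3′ and free of annotated exons.
Eppin: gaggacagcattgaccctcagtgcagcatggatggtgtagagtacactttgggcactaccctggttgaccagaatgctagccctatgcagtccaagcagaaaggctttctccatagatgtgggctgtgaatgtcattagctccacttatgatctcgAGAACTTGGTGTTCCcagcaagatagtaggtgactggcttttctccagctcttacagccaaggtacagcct
A match with at most 2 differences occurred in 1.56% of the 32851 RefSeq start windows of the genome, each with 250 bases before and 50 after a start. By gene, the share was 1.77% of the genes with a window. Eppin was the only member with such a match, and no binding was measured in this study.

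Wfdc8 and Wfdc6b also encode proteins with WAP and Kunitz domains, and their first exons lie head to head. Wfdc8 (ENSMUSG00000070533, chromosome 2, 164596458 to 164613626, minus strand) had 5, 5 and 6 reads in the CON mice against 1409, 1628 and 1374 in the T + E2 mice. Its T + E2 values of 97.5, 99.1 and 91.7 CPM lay closer together than those of any other member, with a coefficient of variation of 4.06%. Wfdc8 rose by 8.08 on the log2 scale (with a standard error of 0.14, edgeR adjusted p = 9.99e-08), and the ratio of the summed counts was 277.8 (exact 95% counting interval 170.9 to 486.5).

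Wfdc6b (ENSMUSG00000070531, chromosome 2, 164613522 to 164618212, plus strand) had 3, 2 and 0 reads in the CON mice against 1496, 2155 and 1212 in the T + E2 mice. These T + E2 values, at 103.5, 131.2 and 80.9 CPM, made it the member with the largest fold change. The ratio of summed counts was 980.2, but it rests on 5 CON reads and its exact 95% counting interval ran from 419.7 to 3020. The ratio was 1650 without CON replicate 1 and 642.9 without CON replicate 3. The fitted rise was 9.82 on the log2 scale (standard error 0.39, edgeR adjusted p = 7.68e-06), and it was 10.50 without CON replicate 1. Exons of Wfdc8 and Wfdc6b overlap by 105 bases on opposite strands. Whether counting used the strand was not given in the sources used here, and reads within these bases cannot be assigned to either gene without it. Reads on Wfdc8 were 94.2%, 75.5% and 113.4% of those on Wfdc6b in the T + E2 mice, so the ratio of the pair varied between mice.

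Wfdc6a (ENSMUSG00000074595, chromosome 2, 164579519 to 164585447, minus strand) is a near copy of Wfdc6b on the far side of Eppin. The annotated transcripts of the pair were 92.1% identical over 811 aligned bases. Only 1 read was counted on Wfdc6a in each CON mouse, against 67, 85 and 49 in the T + E2 mice, which was 4.63, 5.18 and 3.27 CPM. The ratio of summed counts was 67.5 with an exact 95% counting interval of 22.8 to 330.2, and the fitted rise was 5.90 on the log2 scale (standard error 0.40, edgeR adjusted p = 6.94e-05). Reads on Wfdc6a amounted to 4.48%, 3.94% and 4.04% of those on Wfdc6b in the T + E2 mice, a nearly fixed share. Because the copies are so alike, reads of Wfdc6b placed on Wfdc6a cannot be told apart from reads of Wfdc6a itself in these counts. With both rows summed the rise was 9.24 on the log2 scale (edgeR adjusted p = 4.56e-06).

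On the Wfdc6a side, the likeness of the copies extended beyond the annotated exons. A RefSeq start window of Wfdc6a aligned with that of Wfdc6b over 164 positions without gaps, of which 97.0% were identical. The part of it before the Wfdc6a start, chr2:164585178-164585291 on the minus strand of GRCm38, is shown as the sequence that the copies share, with the 5 bases that differ from Wfdc6b in capitals. This stretch lies inside the annotated Wfdc6a gene and outside its exons. The Wfdc6b window, in contrast, held no bases before its start that were free of annotated exons.
Wfdc6a: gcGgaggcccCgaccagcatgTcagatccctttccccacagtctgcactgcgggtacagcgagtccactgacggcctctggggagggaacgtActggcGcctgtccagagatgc
Eppin and Wfdc6a also resembled each other in structure, since their first 3 coding exons have 91, 132 and 168 bases in both genes, and the last has 11 bases in Eppin and 17 in Wfdc6a. Those of Wfdc6b have 121, 135, 171 and 17 bases. T + E2 replicate 2 had the highest and T + E2 replicate 3 the lowest CPM of all 4 neighbouring genes among the T + E2 mice.

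Wfdc3 (ENSMUSG00000076434, chromosome 2, 164731180 to 164745931, minus strand), whose protein is made of several WAP domains, was by far the most abundant member in both groups. It had 758.3, 594.4 and 699.0 CPM in the CON mice against 2770, 3023 and 3267 CPM in the T + E2 mice. The groups lay far apart compared with the spread within them. Wfdc3 rose 4.42-fold, or by 2.14 on the log2 scale (standard error 0.13, edgeR adjusted p = 3.81e-05). By mean FPKM, which also divides by the length of the gene, it moved from rank 110 to rank 30 among all genes of the table, with 273.5 ± 32.3 FPKM in the CON group against 1179 ± 130.3 FPKM after T + E2 (SD, n = 3 each).

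The stretch before the RefSeq start of Wfdc3 on chr2:164743313-164743517 of GRCm38 (minus strand, free of annotated exons) is shown because Wfdc3 carried nearly all reads of the cluster. It lies inside the annotated gene, which extends to 164745931, and not before its outer end. The capitals mark the reverse complement of AGGTCA, the core letters of the oestrogen receptor motif, which begins 148 bases before the RefSeq start.
Wfdc3: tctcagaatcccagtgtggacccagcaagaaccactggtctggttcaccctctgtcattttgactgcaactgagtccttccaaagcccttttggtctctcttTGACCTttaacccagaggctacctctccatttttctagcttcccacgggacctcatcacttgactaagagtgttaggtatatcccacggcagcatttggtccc
AGGTCA on either strand was present in 14.0% of the 32851 start windows and for 15.8% of the genes with a window. Among the 10 members it was present for 7, which were Wfdc10, Wfdc15a, Wfdc15b, Wfdc2, Wfdc3, Wfdc6b and Wfdc8. The windows of Wfdc6b and Wfdc8 overlap in the genome and hold the same match, and Wfdc15a and Wfdc15b, which were not DEGs, held it too. The full oestrogen receptor motif GGTCANNNTGACC was not found without a difference in any member, and it occurred in 0.0639% of the windows. With up to 2 differences it was found in 5 members, in 9.08% of the windows and for 10.4% of the genes with a window.

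Wfdc2 (ENSMUSG00000017723, chromosome 2, 164562413 to 164568510, plus strand) encodes a secreted WAP protein also known as HE4, which is produced by many glandular epithelia. It had 10.9, 16.0 and 12.2 CPM in the CON mice against 22.2, 37.0 and 31.5 CPM in the T + E2 mice. The lowest T + E2 mouse lay above the highest CON mouse, and Wfdc2 rose 2.32-fold, by 1.22 on the log2 scale (standard error 0.21, edgeR adjusted p = 0.00634).

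Slpi (ENSMUSG00000017002, chromosome 2, 164354070 to 164389095, minus strand) encodes the secretory leukocyte protease inhibitor, which blocks neutrophil elastase and cathepsin G. Its counts were low, with 13, 9 and 8 reads in the CON mice against 17, 37 and 20 in the T + E2 mice. Scaled for depth these were 0.861, 0.591 and 0.503 CPM against 1.18, 2.25 and 1.33 CPM, without overlap. The rise of 1.28 on the log2 scale (standard error 0.38) only just passed the threshold, with an adjusted p of 0.0491 in edgeR. The call was lost in 12 of 15 alternative settings, among them each of the 6 fits without 1 mouse, where the log2 fold change ran from 0.94 without T + E2 replicate 2 to 1.53 without CON replicate 1 and the adjusted p from 0.0587 to 0.163.

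Wfdc10 (ENSMUSG00000070529, chromosome 2, 164656046 to 164657368, plus strand) had no reads in any CON mouse and 4, 20 and 31 in the T + E2 mice. All T + E2 mice were above the CON mice, but T + E2 replicate 1 only by 4 reads, and the gene had too few reads to be tested with the others. Against a floor of 3 reads in each CON library it was at least 6.10-fold higher, a limit that covers counting error only and that was 3.84-fold without T + E2 replicate 3. Without the filter on low counts the edgeR adjusted p was 0.011, and in the 4 fits without 1 mouse in which it passed the filter it ran from 0.00654 to 0.0517. Wfdc15a (ENSMUSG00000051769, chromosome 2, 164198863 to 164200130, minus strand) had no reads in any of the 6 mice.

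Wfdc15b (ENSMUSG00000018211, chromosome 2, 164214454 to 164221660, minus strand) was the only tested member that was not a DEG. It had 3, 271 and 0 reads in the CON mice against 52, 49 and 23 in the T + E2 mice. The T + E2 mice therefore lay above CON replicates 1 and 3 and below CON replicate 2. The log2 fold change was -1.15 (standard error 1.40, edgeR adjusted p = 0.602), and it was 4.69 (edgeR adjusted p = 0.00995) without CON replicate 2 and 4.61 (edgeR adjusted p = 0.0359) without both mice numbered 2. CON replicate 2 was the mouse with 69802 reads on Svs4 and 76732 on Svs5, secretory genes of the seminal vesicle. Both genes lie between Wfdc15b and Slpi, and CON replicates 1 and 3 had at most 17 reads on either. T + E2 replicate 2 had 7949 reads on Svs2, 1799 on Svs5 and 109 on Svs4, but its 49 reads on Wfdc15b lay within the range of the other T + E2 mice. The part of seminal vesicle RNA in the Wfdc15b value was not tested.

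**Figure D2:**
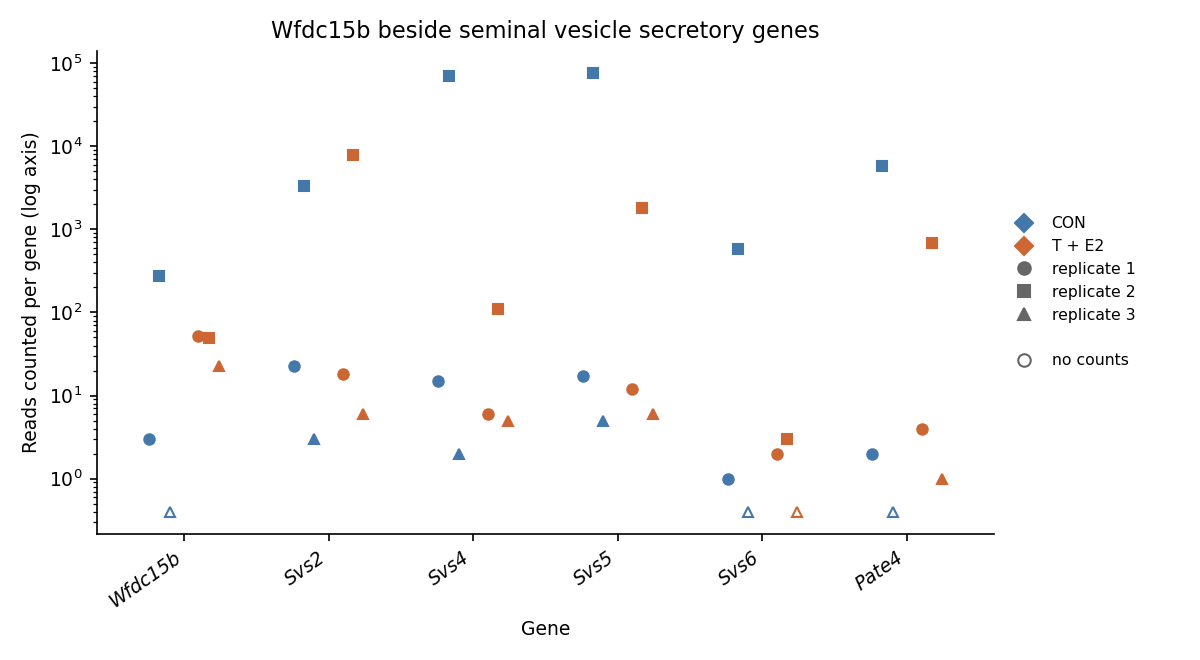
Reads counted on Wfdc15b and on 5 seminal vesicle genes in each mouse, on a log axis, with CON mice in blue, T + E2 mice in orange and replicate numbers as shapes. CON replicate 2 stands above the other CON mice in every gene shown, and T + E2 replicate 2 stands above the other T + E2 mice in Svs2, Svs4, Svs5 and Pate4 but not in Wfdc15b, where it had 49 reads against 52 and 23.

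The other members with changes in the T + E2 group kept them without both mice numbered 2, except Slpi, for which the log2 fold change was then 0.88 (edgeR adjusted p = 0.306). The 7 members called in that setting were the 6 other upregulated DEGs and Wfdc15b.

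Per length, the order of the members also differed between the groups. To compare genes, FPKM was recomputed on the length covered by exons, because the deposited FPKM counts shared exon bases of several transcripts more than once. In the T + E2 group Wfdc3 was at 1179 ± 130.3 on that scale (SD, n = 3, as for the next values) and Wfdc6b followed at 105.3 ± 24.9. Wfdc8 at 26.5 ± 0.875, Wfdc2 at 26.2 ± 6.94 and Eppin, with 16.4 to 24.7 in the 3 mice, came next. Wfdc2 overlapped with both of the others, whereas every Wfdc8 value, 25.9 or more, lay above every Eppin value. Wfdc6a at 4.95 ± 1.06, Wfdc15b at 4.63 ± 1.71, Wfdc10 at 2.59 ± 1.99 and Slpi at 1.33 ± 0.498 formed the low end, where neighbours in the order overlapped. In the CON group Wfdc3 was at 273.5 ± 32.3 and Wfdc2 at 11.6 ± 2.46, and Wfdc15b was at 31.9 in CON replicate 2 but at 0.354 or less in the other CON mice. The mean of each remaining member was 0.560 or less. Wfdc6b therefore moved from below Slpi to the place after Wfdc3, yet in the T + E2 mice the FPKM of Wfdc3 was still 10.4, 8.96 and 15.7 times that of Wfdc6b.

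Together the 10 members took 0.0785%, 0.0645% and 0.0707% of all reads in the CON mice against 0.289%, 0.329% and 0.353% in the T + E2 mice. The means were 0.0713 ± 0.00703% and 0.324 ± 0.0327% (SD, n = 3 each), a difference of 0.252 percentage points (exact two-sided permutation test, p = 0.1, the smallest p that 3 mice against 3 allow). Wfdc3 alone held 94.4 to 98.4% of the members' reads in the CON mice against 91.0 to 93.6% in the T + E2 mice, so the share of the cluster was mostly that of Wfdc3.

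The changes were then set against the genes around the cluster. The window from 10 genes before Wfdc15a to 10 genes after Wfdc3 spanned chromosome 2 from 163859751 to 164833456 of GRCm38 and held 53 genes, of which 29 were tested. In the main fit its 7 DEGs were the 7 WFDC members, whereas some alternative settings also called other genes of the window. Among the 20 flanking genes 13 were tested and none was a DEG, with log2 fold changes from -0.57 to 0.46. Tomm34, an import factor of mitochondria, at -0.40 (edgeR adjusted p = 0.0344) and Dnttip1, which starts just after Wfdc3, at 0.35 (edgeR adjusted p = 0.0427) passed the threshold on p but not on the fold change. Tomm34 and Pigt are named because of their values. Of the 23 other genes between the first and the last member 8 were tested and none was a DEG. Pigt, which acts in anchoring proteins to the membrane, reached 0.60 (edgeR adjusted p = 0.00642). Matn4, which lies next to Slpi and encodes a matrix protein, was at -0.71 (edgeR adjusted p = 0.088). Gm14317, a noncoding gene between Pigt and Wfdc2, was not tested. It had no reads in the CON mice against 3, 3 and 0 in the T + E2 mice.

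**Figure D3:**
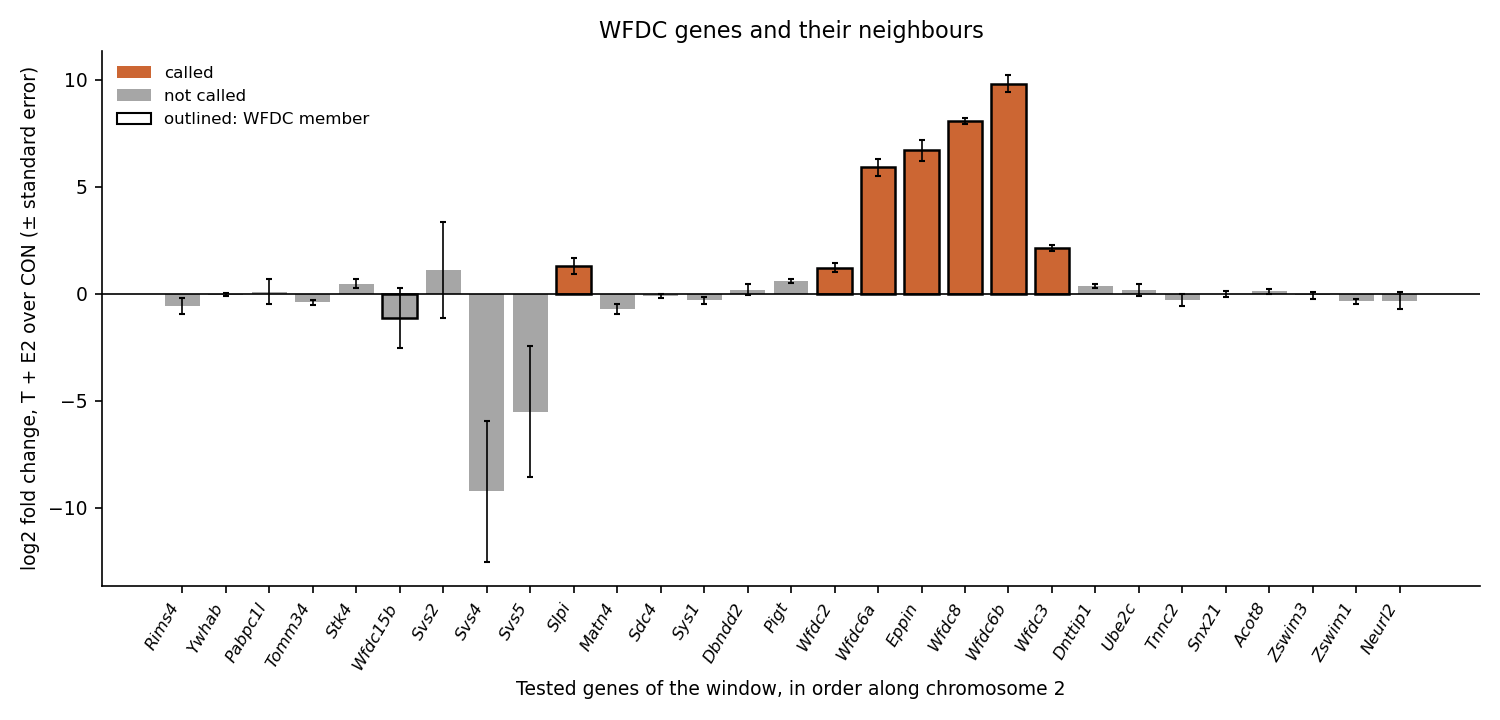
Log2 fold change of the T + E2 over the CON group with its standard error for the 29 tested genes of the window, in order along chromosome 2, with DEGs in orange, other genes in grey and WFDC members outlined. The run from Wfdc2 to Wfdc3 stands above flanking genes that lie between -0.57 and 0.46, and the seminal vesicle genes Svs2, Svs4 and Svs5 have wide errors.

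Between Wfdc2 and Wfdc3 lie 7 more genes, the WFDC genes Wfdc16, Wfdc9, Wfdc11 and Wfdc13 and the Kunitz inhibitor genes Spint3, Spint4 and Spint5. None had enough reads to be tested. Wfdc9, Spint3, Spint4 and Spint5 had no reads in any mouse, so this stretch also held genes without reads in either group. Wfdc16 had no reads in the CON mice against 3, 5 and 7 in the T + E2 mice, which was at least 1.68-fold higher against the floor of 3 reads. Wfdc13 had 1, 2 and 0 reads against 2, 9 and 1, and Wfdc11 had 2 reads in T + E2 replicate 2 alone. Before Wfdc15a, Wfdc12 had 3, 3 and 2 reads in the CON mice against 7, 13 and 15 in the T + E2 mice, and Wfdc5 had at most 1 read in any mouse.

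None of the tested WFDC genes on other chromosomes was a DEG. Of the 7 listed, Wfdc16 lies within the chromosome 2 window in the deposited table and is described above, and 4 of the others were tested and did not pass. Wfdc1, a WAP protein of the prostate stroma, was at 14.5 ± 0.545 CPM in the CON group and 12.7 ± 0.566 CPM in the T + E2 group (SD, n = 3 each), a log2 fold change of -0.19 (edgeR adjusted p = 0.258). Wfdc17 was at 0.74 (edgeR adjusted p = 0.22), Wfikkn2 at 0.24 and Wfikkn1 at -0.60, with adjusted p of 0.574 and 0.308 in edgeR.

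Among 9 serine proteases that Slpi can bind, 3 were tested and 1 fell. This was Mcpt4, a chymase of mast cells, with 158, 147 and 112 reads in the CON mice against 43, 80 and 28 in the T + E2 mice and a log2 fold change of -1.47 (edgeR adjusted p = 0.0191). Cma1, another mast cell chymase, was at -0.80 (edgeR adjusted p = 0.0471) and missed the threshold on the fold change, and Tpsb2, a mast cell tryptase, was at -0.56 (edgeR adjusted p = 0.203). The neutrophil proteases, the best known targets of Slpi, were near the limit of detection, with at most 1 read on Ctsg in any mouse and no reads on Elane except 5 and 1 in T + E2 replicates 2 and 3. Of 10 neutrophil and mast cell markers 5 were tested, and Mcpt4 was the only DEG. Kit, at -0.99 (edgeR adjusted p = 0.00699), missed the threshold on the fold change. S100a9 went the other way, at 1.25, and did not pass on p (edgeR adjusted p = 0.392). None of 7 tested partners of Slpi and Eppin was a DEG. Grn, whose granulin precursor Slpi shields from cleavage, was at 0.93 (edgeR adjusted p = 0.000736) and Anxa2 at 0.54 (edgeR adjusted p = 0.0231), below the threshold on the fold change. Plscr4, a scramblase of the cell membrane, was at -0.62 (edgeR adjusted p = 0.0567) with lower values in all T + E2 mice, and Clu, which is found with Eppin on sperm, was at 0.42 (edgeR adjusted p = 0.201).

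Because several members are known from the epididymis, markers of that tissue were examined. Of 22 markers 12 had no reads in any mouse, among them Lcn5, Lcn8, Lcn9, Lcn10, Cst8, Gpx5 and Crisp4, and 17 had at most 3 reads in every mouse. The summed level of the list was 24.9 to 26.2 CPM in the CON mice against 35.1 to 41.4 CPM in the T + E2 mice, most of it from Adam28. Adam7, whose protein is passed from the epididymis to sperm, had no reads in the CON mice against 158, 81 and 139 in the T + E2 mice, at least 43.0-fold higher against the floor. Defb48, a defensin, had 2, 1 and 2 reads against 12, 13 and 17 (log2 fold change 2.99, edgeR adjusted p = 0.00331), and these were the 2 DEGs among 3 tested markers. Both passed the filter on low counts only through their T + E2 reads, so they could enter the test only as higher in that group. Of all tested genes 4.27% were upregulated DEGs. Of 10 germ cell markers 4 had no reads in any mouse and the only tested one, Acrv1, which encodes a protein of the acrosome, rose by 1.59 on the log2 scale (edgeR adjusted p = 0.000695).

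Markers of the prostate were abundant in both groups, as the label of the tissue says. The summed level of 10 luminal markers was 41230 to 54711 CPM in the CON mice against 18578 to 20457 CPM in the T + E2 mice. Of these 10, all tested, Epcam rose by 1.18 and Msmb by 1.10 on the log2 scale, while Pbsn (probasin) fell by 3.29, Tgm4 fell by 2.91 and Cd24a fell by 1.30 (edgeR adjusted p from 2.45e-05 to 0.00122). No basal or smooth muscle and stroma marker was a DEG. Some passed the threshold on p but not on the fold change. They were Trp63 at 0.57 (edgeR adjusted p = 0.0108), Acta2 at -0.50 (edgeR adjusted p = 0.0137) and Des at -0.38 (edgeR adjusted p = 0.044). The other markers of these lists did not pass on p. Of 6 markers of urothelium, the lining of bladder and urethra, 4 were tested and 2 rose, Upk1a by 1.80 and Upk2 by 2.20 on the log2 scale (edgeR adjusted p = 0.00109 and 0.00322). The summed level was 423.1 to 643.2 CPM in the CON mice against 1374 to 1703 CPM in the T + E2 mice. Most of it came from Upk1a, with a mean of 373.9 CPM in the CON group against 1306 CPM in the T + E2 group. Upk3a had no reads in the CON mice against 5, 99 and 3 in the T + E2 mice. Krt20 had 2, 3 and 4 reads in the CON mice against 6, 120 and 1 in the T + E2 mice. Both stood out in T + E2 replicate 2 alone. That mouse was also highest in Wfdc6a, Wfdc6b, Wfdc8, Eppin, Wfdc2 and Slpi among the T + E2 mice. Wfdc3 and Wfdc10 were instead highest in T + E2 replicate 3, and Wfdc15b in T + E2 replicate 1. The part of these tissues in the change of the WFDC members was not tested.

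Wfdc2, Wfdc3, Wfdc6a, Wfdc6b, Wfdc8 and Eppin remained upregulated DEGs under each of 16 alternative settings. Wfdc3 and Wfdc2 hardly moved, with log2 fold changes of 2.05 to 2.22 and 1.05 to 1.40. The 4 genes with very few CON reads moved more. The lowest values, 2.32 for Wfdc6a, 4.20 for Eppin, 4.33 for Wfdc8 and 6.55 for Wfdc6b, came from limma on log2(FPKM + 1).

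**Figure D4:**
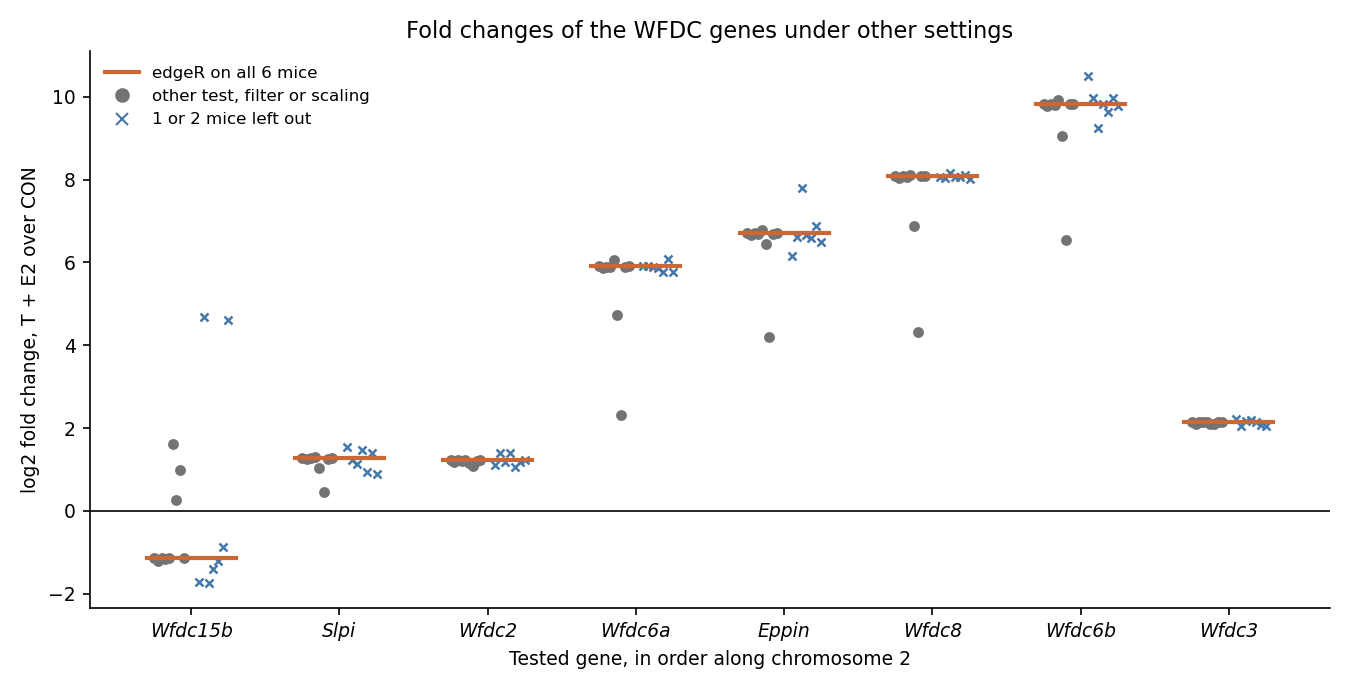
Log2 fold change of the 8 tested WFDC genes in edgeR on all 6 mice (bars), under other tests, filters and scalings (grey points) and with 1 or 2 mice left out (blue crosses). Wfdc15b lies on both sides of 0, from -1.73 to 4.69, whereas the other 7 genes stay above 0 in every setting.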

How the data were processed

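RNA of whole prostate from 3 CON and 3 T + E2 mice was sequenced as paired-end TruSeq libraries, and the groups and replicate numbers were taken from the sample labels, which number the prostates of a group and were read as separate animals. The deposited table holds, for each mouse, whole-number read counts per gene without normalization, and FPKM values that the authors computed from these counts, the library total and a gene length equal to the sum of all distinct exon records. The submitters' processing notes name TopHat, Bowtie2 and HTSeq without versions. Their roles, the genome build, the annotation and the strand setting were not given in the sources used here. Gene coordinates are those of the table and matched GENCODE release M21 on GRCm38 exactly for 52 of the 53 genes of the chromosome 2 window.

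The count test was edgeR 4.0.16 (R 4.3.3). The filter filterByExpr, with at least 10 reads per library and 15 in total, kept 15580 of 34745 genes, while 12441 genes had no reads at all. Libraries were scaled by TMM and compared with glmQLFit and glmQLFTest, with Benjamini-Hochberg adjustment over all tested genes. A standard error was obtained as the ratio of the log2 fold change to the square root of F, and the biological coefficient of variation was 18.0%. A count of 3 in a library, 0.181 to 0.202 CPM before TMM scaling, was taken as the floor. Intervals of ratios are exact 95% intervals from the binomial distribution of summed counts, and like the floor they cover counting error only, since reads without molecular identifiers are not independent molecules.

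Alternatives were median of ratios and library total scaling, no filter on low counts, an FPKM filter of 1, DESeq2 1.42.0, limma 3.58.1 on log2(FPKM + 0.1) and log2(FPKM + 1), the adjusted p alone, a replicate block and the omission of each mouse, which was applied to the ratios of summed counts only after seeing the data. The fit was tested on simulated data. Similar transcripts were searched with BLAST+ 2.17.0+ (at least 100 bases and 80% identity), start windows were taken from RefSeq on GRCm38 for all 10 members and aligned with Biopython 1.88, and plots were made in Python 3.11.15 with matplotlib 3.10.9.

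The members and all gene lists were chosen with earlier results of these data known. The genes named are the 10 members, the DEGs with the 3 largest changes in each list, markers whose value touches a member, and in the window every DEG and every gene that overlaps or neighbours a member, and genes named outside this rule were chosen after their values were seen. Protein sequences were not used here.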

Additional observations from a re-analysis of the deposited data

How the results depend on the processing

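The number of WFDC members called was 7 and stayed between 6 and 8 over 16 alternatives, which was also its range with 1 mouse left out. The number of DEGs over all genes, 1191, moved to 553 with limma on log2(FPKM + 1) and to 3061 with the adjusted p alone, and ran from 972 to 1152 with 1 mouse left out. In the chromosome 2 window it ran from 6 to 8 with 1 mouse left out and reached 10 with the adjusted p alone. With no filter on low counts 9 genes of the window were called against 7 members, and with a replicate block 7 against 6. Without CON replicate 1 or without T + E2 replicate 1 it was 8 against 7. Genes of the window that are not members were therefore called in these settings. The share of reads on the members differed by 0.286 percentage points without the 10 most abundant genes, and by 0.238 to 0.270 with 1 mouse left out. The sign of Wfdc15b turned to a log2 fold change of 1.60 and 0.26 with limma on log2(FPKM + 0.1) and log2(FPKM + 1), and to 4.61 without both mice numbered 2, an alternative chosen after seeing the data. With 1 mouse left out it ran from -1.73 to 4.69, and only leaving out CON replicate 2 turned it. Apart from these and the replicate block, the alternatives kept the direction of every tested member, and Slpi was the only member that lost its call.

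With a replicate block, 6 members were called, the log2 fold change of Wfdc15b was 0.97 (edgeR adjusted p = 0.712), and that of Slpi was 1.25 (edgeR adjusted p = 0.0975). The numbers were not stated to mark a shared origin, and the deviations of mice with the same number correlated at -0.0516, 0.0275 and 0.0463 across genes, so they were not taken as pairs, and not every mouse correlated best with its own number. Library total scaling shifted the median of all genes by -0.04. With 3 mice in each group, genes with few reads, such as Slpi, Wfdc10 and Wfdc15b, allow no firm size of change, and the sources of RNA in whole tissue cannot be told apart. Summing Wfdc15a and Wfdc15b left the value at -1.15.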
